A study of Mus musculus with 8 samples.

Results

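The globin and red cell genes examined here were 5 genes taken as a measure of residual blood in hippocampal tissue, out of 31417 genes in the count table. They were Hba-a1 and Hba-a2, which encode the adult alpha chains of haemoglobin, Hbb-bs and Hbb-bt, which encode the adult beta chains, and Alas2, which encodes the erythroid form of the first enzyme of haem synthesis. All 5 were found in the table by symbol, and all 5 passed the filter on low counts.

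RNA came from hippocampi of 12-month-old mice. There were 4 libraries of Dclk3 knockout (KO) animals and 4 of wild-type (WT) animals that served as their controls. Dclk3 encodes doublecortin-like kinase 3, a brain kinase. A single hippocampus gave the RNA of a library, 1000 ng of which went through poly(A) selection and a strand-specific kit. The labels do not say that the samples of a genotype came from separate animals, and p-values then measure only the spread between these samples, which may be technical. The sources used here do not give the strain, the deleted stretch of Dclk3 or whether blood was flushed from the animals by perfusion.

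Haemoglobin is a tetramer of 2 alpha and 2 beta chains, each holding a haem group that binds oxygen. Its genes are transcribed in erythroid precursors, and young red cells that have lost their nucleus still carry much of the messenger RNA. A tissue that keeps blood in its vessels therefore yields globin reads, although low globin expression has also been described in neurons and glia of mice. In the bulk tissue used here, fewer cells of a type and less RNA per cell cannot be told apart.

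The copies of each pair are almost the same in sequence, which bears on every value below. In the GENCODE M21 models the coding sequences of Hba-a1 and Hba-a2 are 429 bases long and differ at 1 base, written C381T (Hba-a1 first, positions counted from 1 at the A of the start codon). Those of Hbb-bs and Hbb-bt are 444 bases long and differ at 1 base, C417T (Hbb-bs first). The coding stretches around those bases are shown 5′ to 3′, as 60 bases each from the M21 transcripts, because they hold the single coding base that separates the copies, in capitals.
Hba-a1: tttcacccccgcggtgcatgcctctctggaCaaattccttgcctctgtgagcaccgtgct
Hba-a2: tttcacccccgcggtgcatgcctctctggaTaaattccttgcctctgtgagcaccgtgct
Hbb-bs: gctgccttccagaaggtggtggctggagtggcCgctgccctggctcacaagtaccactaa
Hbb-bt: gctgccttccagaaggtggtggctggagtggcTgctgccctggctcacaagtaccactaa
The untranslated ends of the transcripts hold the other differences. Of all 50-base windows of the M21 transcript of Hba-a2, 86.9% also occurred in Hba-a1, and 67.5% of those of Hba-a1 occurred in Hba-a2. For 100-base windows the shares were 74.5% and 56.5%. Of the 50-base windows of Hbb-bs, 65.8% occurred in Hbb-bt, and 58.3% of those of Hbb-bt occurred in Hbb-bs. The sources used here do not say how reads that match both copies were counted, so the level of each copy, and its share of the pair, is uncertain. For Alas2, 13.8% of the 50-base windows occurred in transcripts of Apex2, which encodes a DNA repair enzyme, or of Mir3620. Both strands were searched for all these shares, and Apex2 lies on the strand opposite to Alas2.

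The genes lie at 3 places of mm10. Hba-a1 (ENSMUSG00000069919) is at chr11:32283511-32284465 and Hba-a2 (ENSMUSG00000069917) at chr11:32296489-32297298, both on the plus strand. Hbb-bs (ENSMUSG00000052305) is at chr7:103826534-103828096 and Hbb-bt (ENSMUSG00000073940) at chr7:103812524-103813996, both on the minus strand. Alas2 (ENSMUSG00000025270) is at chrX:150547375-150570638 on the plus strand, inside the M21 model of Apex2, which runs along the minus strand at chrX:150519519-150589868. All 5 genes are annotated as protein coding. The values are counts for each gene as a whole, and the sources used here do not name the annotation behind them.

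The 110 bases before the RefSeq start of 4 of the 5 genes are shown (GRCm38.p6, 5′ to 3′ on the gene's own strand). Capitals mark 4 motifs on either strand. These are GATAA, part of the site of GATA factors, then CACCC, the core site of Krüppel-like factors, then CCAAT, the core site of NF-Y, and TATAA, the core of the TATA box.
Hba-a2, chr11:32296382-32296491, plus strand: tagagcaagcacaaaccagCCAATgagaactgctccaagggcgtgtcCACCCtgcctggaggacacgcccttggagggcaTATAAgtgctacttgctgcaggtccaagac
Hbb-bs, chr7:103827929-103828038, minus strand: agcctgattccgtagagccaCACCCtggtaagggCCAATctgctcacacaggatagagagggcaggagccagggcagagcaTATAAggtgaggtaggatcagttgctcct
Hbb-bt, chr7:103813924-103814033, minus strand: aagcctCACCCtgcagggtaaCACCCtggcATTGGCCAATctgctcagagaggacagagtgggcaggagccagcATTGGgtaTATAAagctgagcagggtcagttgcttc
Alas2, chrX:150547307-150547416, plus strand: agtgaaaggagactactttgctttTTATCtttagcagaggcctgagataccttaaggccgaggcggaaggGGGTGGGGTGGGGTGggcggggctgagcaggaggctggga
The Hba-a1 promoter is not shown, because an identical run of 247 bases covers nearly all of the 250 bases before the start in both alpha genes. The start of the M21 model lies upstream of the RefSeq start in each of these genes, so that these windows lie partly or wholly within the M21 models. In each of the 4 globin promoters TATAA began 27 to 30 bases before the start. CCAAT on the same strand began 75 to 91 bases before it, and the nearest same-strand CACCC 60 to 90 bases before it. In Alas2 no TATAA or CCAAT was found in the 110 bases, CACCC stood 3 times on the opposite strand, beginning 30 to 40 bases before the start, and GATAA stood there 86 bases before it. In the globin promoters GATAA stood farther out, 182 to 209 bases before the start. Over 32851 promoters of the same table, GATAA was found in 22.6%, CACCC in 52%, CCAAT in 33.8% and TATAA in 22.8% of the 250-base windows, and in 9.43%, 29.6%, 20.2% and 10.9% of the 110-base windows. No motif overlapped another in the stretches printed. These matches are a description of the letters and not of binding.

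The depth was 29301974 to 36552757 counts per library. Levels are given as CPM, counts per 1000000 of a library total after TMM scaling. Dclk3 itself stood at 5.91 to 9.28 CPM in KO libraries and at 20.8 to 39.3 CPM in WT libraries, so the groups did not overlap. On the first principal component of all tested genes, which held 26.7% of the variance, the library farthest to one side was KO replicate 1 at 26.1 and the farthest to the other was WT replicate 2 at -35.8. Together, the 4 globins took 0.00773% to 0.0175% of the counts of KO libraries and 0.00634% to 0.00961% of those of WT libraries.

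Hbb-bs was the most abundant of the 5 genes. It had 4295, 1567, 2757 and 2178 counts in KO replicates 1 to 4, against 2421, 1569, 1904 and 1305 counts in WT replicates 1 to 4. On the CPM scale that was 117, 51.8, 95.3 and 69.6 in KO libraries, against 67.3, 48.9, 61.1 and 44.0 in WT libraries. KO replicate 1 was the highest of all 8 libraries, followed by KO replicates 3 and 4, and KO replicate 2 lay within the WT range, so the groups overlapped. The mean was 83.4 ± 28.6 CPM in KO and 55.3 ± 10.8 CPM in WT (SD, n = 4 each).

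The second beta gene, Hbb-bt, had 760, 231, 504 and 409 counts in KO libraries, against 390, 244, 294 and 228 counts in WT libraries. Its levels were 20.7, 7.63, 17.4 and 13.1 CPM in KO, against 10.8, 7.60, 9.44 and 7.69 CPM in WT. KO replicate 2 again lay among the WT libraries and the other 3 KO libraries above all of them. Mean levels were 14.7 ± 5.64 CPM in KO and 8.89 ± 1.55 CPM in WT (SD, n = 4 each).

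Hba-a1 had 666, 300, 484 and 392 counts in KO replicates 1 to 4, against 423, 296, 342 and 232 counts in WT replicates 1 to 4. Scaled, these were 18.1, 9.91, 16.7 and 12.5 CPM in KO libraries, against 11.8, 9.22, 10.98 and 7.83 CPM in WT libraries. The 3 highest libraries were KO replicates 1, 3 and 4. Its mean was 14.3 ± 3.78 CPM in KO and 9.95 ± 1.77 CPM in WT (SD, n = 4 each).

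For Hba-a2 the counts were 442, 179, 374 and 253 in KO libraries, against 277, 176, 215 and 176 in WT libraries. The levels were 12.0, 5.91, 12.9 and 8.09 CPM in KO, against 7.70, 5.48, 6.90 and 5.94 CPM in WT. Here KO replicate 3 was the highest library and KO replicate 2 was lower than 3 of the 4 WT libraries. The mean level was 9.74 ± 3.30 CPM in KO and 6.51 ± 0.994 CPM in WT (SD, n = 4 each).

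Alas2, the enzyme gene, was the scarcest, with 240, 112, 190 and 181 counts in KO libraries, against 168, 122, 146 and 109 counts in WT libraries. Its levels were 6.53, 3.70, 6.57 and 5.79 CPM in KO, against 4.67, 3.7999, 4.69 and 3.68 CPM in WT. KO replicates 1, 3 and 4 lay above every WT library, and KO replicate 2 lay below 3 of them. Mean levels were 5.65 ± 1.35 CPM in KO and 4.21 ± 0.545 CPM in WT (SD, n = 4 each). Apex2, which overlaps it on the opposite strand, had 123 to 146 counts in KO libraries and 119 to 159 counts in WT libraries. Across the 8 libraries the Pearson r of Apex2 with Alas2 was -0.26 as a description.

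**Figure D1:**
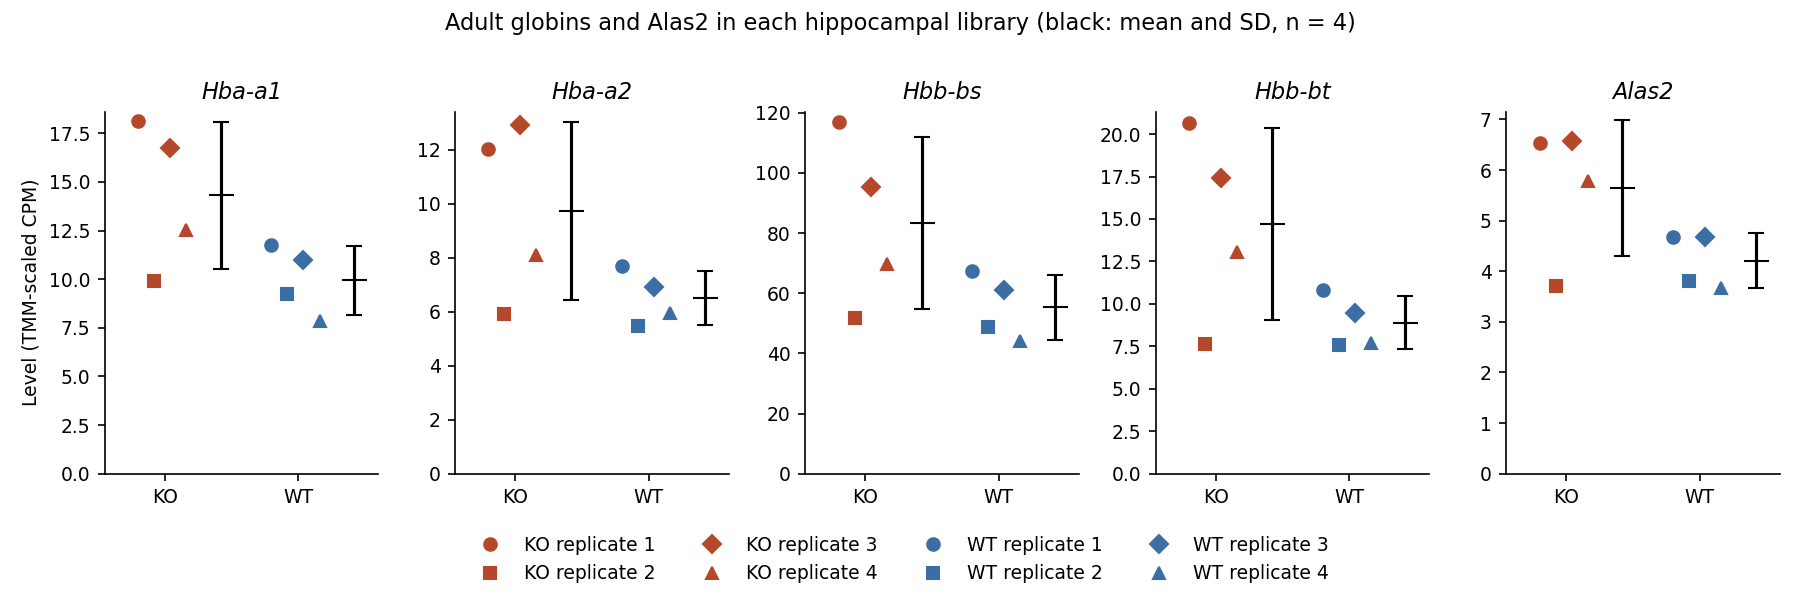
Level of each of the 5 genes in every library, in TMM-scaled CPM on axes that start at 0, with KO libraries left and WT libraries right, 1 symbol per replicate number, and the mean and SD (n = 4) in black. In each panel 3 of the 4 KO libraries lie above every WT library, and KO replicate 2 lies among the WT libraries.

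Per kilobase of M21 exon sequence, the order of the levels was Hbb-bs, then Hbb-bt, Hba-a1 and Hba-a2, then Alas2. Hbb-bs stood at 109 ± 37.2 CPM per kilobase in KO and 72.0 ± 14.005 in WT (SD, n = 4 each). Hbb-bt, Hba-a1 and Hba-a2 followed at 20.9 ± 8.03, 17.6 ± 4.65 and 14.6 ± 4.95 CPM per kilobase in KO, and at 12.7 ± 2.21, 12.2 ± 2.18 and 9.75 ± 1.49 in WT. The order of Hbb-bt and Hba-a1 changed between libraries, and their means differed by less than the SD. Hba-a1 stood above Hba-a2 in all 8 libraries, by less than the SD in KO but by more than the SD in WT. Alas2 stood lowest, at 2.35 ± 0.560 CPM per kilobase in KO and 1.75 ± 0.227 in WT. The order among the copies depends on how shared reads were counted, and the annotation behind the counts may differ from M21.

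The comparison of KO with WT asked whether the knockout hippocampi held a different level of these transcripts. All 5 genes had a higher mean in KO, by 1.34-fold for Alas2 to 1.65-fold for Hbb-bt, and none of them passed the test over all genes. A log2 fold change above 0 was found in 5 of the 5, where 50.1% of all tested genes had one, and a log2 fold change of at least 0.3 also in 5 of the 5, where 8.6% of tested genes had one. The spread among KO libraries was as large as 38.4% of the mean for Hbb-bt and 34.2% for Hbb-bs, against 17.5% and 19.4% among WT libraries.

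In edgeR's quasi-likelihood test with Benjamini-Hochberg adjustment over 16228 genes, 0 of the 5 genes were called at an adjusted p under 0.05, where 0% of all tested genes were called. The adjusted p was 0.796 for each of the 5. This edgeR test did not call Dclk3 itself either, at a log2 fold change of -1.79 (adjusted p = 0.234). The log2 fold change of Hbb-bs was 0.59 (SE 0.25, 95% interval 0.020 to 1.16). It was 0.73 for Hbb-bt (SE 0.27, interval 0.10 to 1.35), 0.53 for Hba-a1 (SE 0.20, interval 0.087 to 0.96), 0.58 for Hba-a2 (SE 0.23, interval 0.061 to 1.10) and 0.42 for Alas2 (SE 0.19, interval 0.013 to 0.83). These intervals are not adjusted for the number of genes tested. For Hbb-bs the interval ran from 1.01-fold to 2.24-fold, so the test neither shows a difference nor shows that the genotypes were alike.

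Before adjustment, each of the 5 genes had an edgeR p under 0.05, from 0.0237 for Hba-a1 to 0.0444 for Alas2, all with the higher level in KO. Of all tested genes, 6.16% passed that mark in either direction and 3.96% passed it as higher in KO. The 5 genes rose and fell together from library to library, so their 5 p-values are not separate pieces of evidence. Exact two-sided permutation of the log2 CPM over the 8 libraries gave p = 0.114 for Hba-a1 and Hbb-bs and p = 0.143 for Hba-a2, Hbb-bt and Alas2, where 4 against 4 allows no p below 0.0286. The KO and WT ranges overlapped in all 5 genes, while they did not overlap in 3.8% of all tested genes. DESeq2 also called 0 of the 5, where it called 0.0138% of genes, and limma-voom called 0 of the 5, where it called 0% of genes. The unadjusted p of the DESeq2 Wald test was under 0.05 for all 5, from 0.00384 for Hbb-bt to 0.0364 for Hbb-bs. With limma-voom and quality weights the unadjusted p was above 0.05 for all 5, from 0.0669 for Hba-a1 to 0.204 for Alas2. The log2 fold change was then 0.46 for Hbb-bt and 0.28 for Alas2, each more than 1.5 times smaller than by edgeR.

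Among the edgeR fits with 1 library left out, the log2 fold change was smallest for Hbb-bs, Hbb-bt and Hba-a1 without KO replicate 1. With KO replicate 1 left out, it was 0.39 for Hbb-bs, 0.39 for Hba-a1, 0.46 for Hba-a2, 0.52 for Hbb-bt and 0.35 for Alas2. For Hba-a2 and Alas2 it was smaller still without KO replicate 3, at 0.42 and 0.34. Among these fits it was largest for all 5 without KO replicate 2, at 0.76 for Hbb-bs, 0.67 for Hba-a1, 0.76 for Hba-a2, 0.94 for Hbb-bt and 0.58 for Alas2. Leaving out KO replicate 1 thus lowered the estimate for Hbb-bs by more than 1.5 times.

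**Figure D2:**
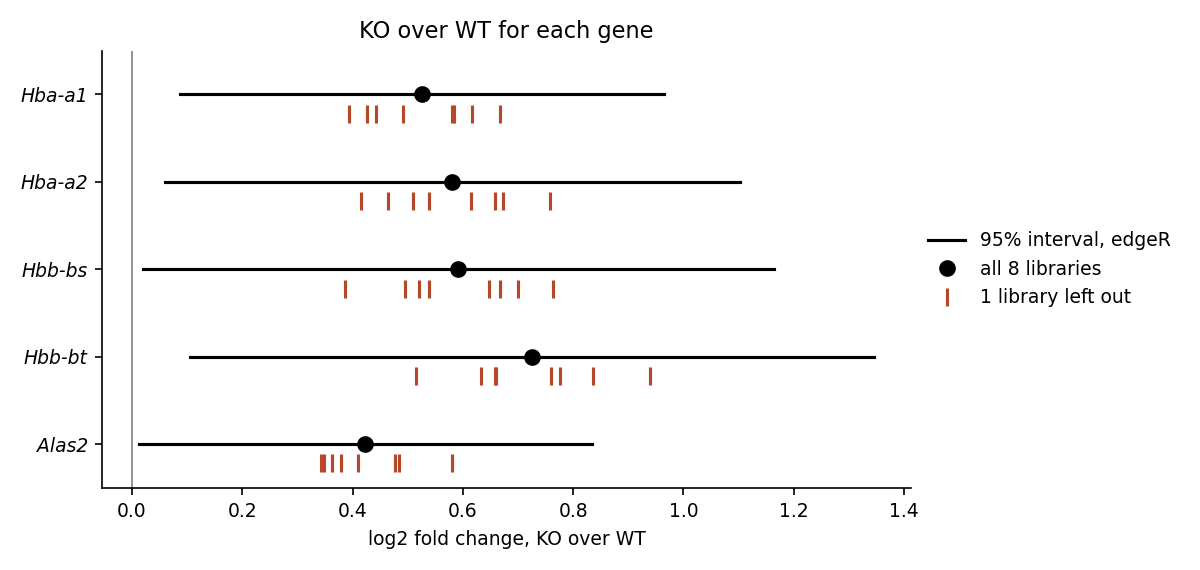
The log2 fold change of KO over WT for each gene from edgeR (black point, all 8 libraries) with its unadjusted 95% interval (line), and below it the 8 values with 1 library left out (red ticks). All points and ticks lie above 0, the intervals start between 0.013 and 0.10, and no gene passed the adjusted test.

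The 5 genes varied together. Over the 8 libraries, the Pearson r of log2 CPM lay between 0.94 and 0.99 for the 10 pairs of genes, and Spearman's rho between 0.86 and 1.0. The exact permutation p, adjusted over the 10 pairs, was at most 7.19e-04 for r and at most 0.0107 for rho. Hba-a1 and Hbb-bs, which lie on different chromosomes and share no read windows, had the highest r (0.99), and both ranked the 8 libraries in the same order. Without KO replicates 1 and 3, the libraries farthest from the median in each pair, r was 0.86 to 0.98 over the remaining 6 libraries. Part of the agreement within the alpha pair and within the beta pair can follow from shared reads, which does not apply between alpha, beta and Alas2. Hbb-bs and Alas2, whose transcripts share no windows of 50 bases, had the lowest r of the 10 pairs, 0.94.

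Alas2 moved over a narrower range than the globins. Its highest level was 1.79 times its lowest, against 2.31 for Hba-a1, 2.36 for Hba-a2, 2.65 for Hbb-bs and 2.72 for Hbb-bt. Per 1000 globin counts there were 38.9, 49.2, 46.1 and 56.0 Alas2 counts in KO replicates 1 to 4, against 47.8, 53.4, 53.0 and 56.2 in WT replicates 1 to 4. The lowest ratio was that of KO replicate 1, the library richest in globin, and the highest that of WT replicate 4, the poorest. Globin counts are the divisor of this ratio, so it is not independent of the globin level. KO replicate 4, which lay above every WT library in globin, had a ratio of 56.0, close to the highest. The mean ratio was 47.6 ± 7.08 in KO and 52.6 ± 3.46 in WT (SD, n = 4 each; exact two-sided permutation p = 0.286).

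**Figure D3:**
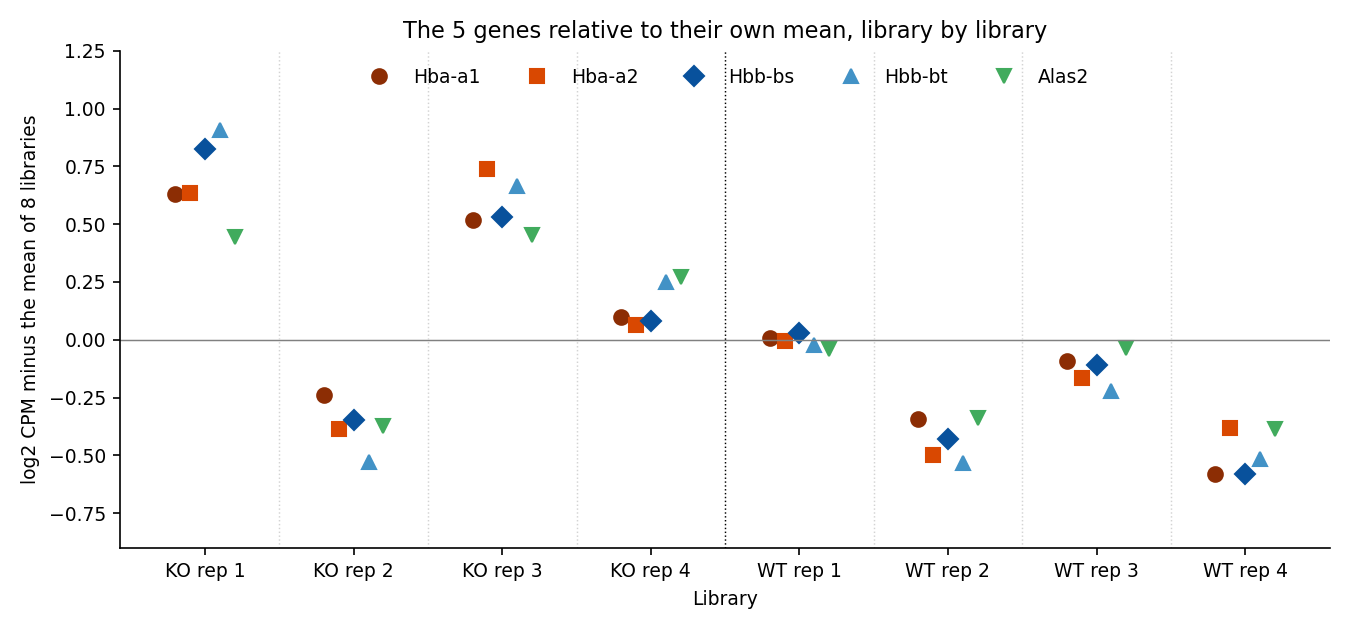
log2 CPM of each gene minus its own mean over the 8 libraries, with KO libraries left of the dark dotted line and WT libraries right of it, and 1 symbol per gene. Within a library the 5 symbols lie close together, above 0 in KO replicates 1, 3 and 4 and below 0 in KO replicate 2 and in WT replicates 2, 3 and 4.

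The make-up of the globin counts within a library was examined next, since a ratio within a library does not depend on scaling. Hba-a1 took 60.1%, 62.6%, 56.4% and 60.8% of the alpha counts in KO replicates 1 to 4, against 60.4%, 62.7%, 61.4% and 56.9% in WT replicates 1 to 4. The Wilson 95% interval was narrowest in KO replicate 1, with 1108 alpha counts (57.2% to 63.0%), and widest in WT replicate 4, with 408 (52.0% to 61.6%). The mean share was 60.0% ± 2.61 in KO and 60.4% ± 2.51 in WT (SD, n = 4 each; exact two-sided permutation p = 0.743). Such intervals cover counting error only, since the reads carry no molecular identifiers and PCR copies are not separate molecules.

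Hbb-bs took 85.0%, 87.2%, 84.5% and 84.2% of the beta counts in KO libraries, against 86.1%, 86.5%, 86.6% and 85.1% in WT libraries. Mean shares were 85.2% ± 1.33 in KO and 86.1% ± 0.687 in WT (SD, n = 4 each; exact two-sided permutation p = 0.314). The ratio of alpha to beta counts was 0.219, 0.266, 0.263 and 0.249 in KO libraries, against 0.249, 0.260, 0.253 and 0.266 in WT libraries. KO replicate 1 stood lowest, and the other 7 libraries lay between 0.249 and 0.266. On the log2 scale the ratio averaged -2.01 ± 0.13 in KO and -1.96 ± 0.042 in WT (SD, n = 4 each; exact two-sided permutation p = 0.686). Adjusted over the 3 ratios, each p was 0.743. The alpha to beta ratio is a ratio of counts and not of chains made, since reads that match both copies may have been dropped from either pair.

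**Figure D4:**
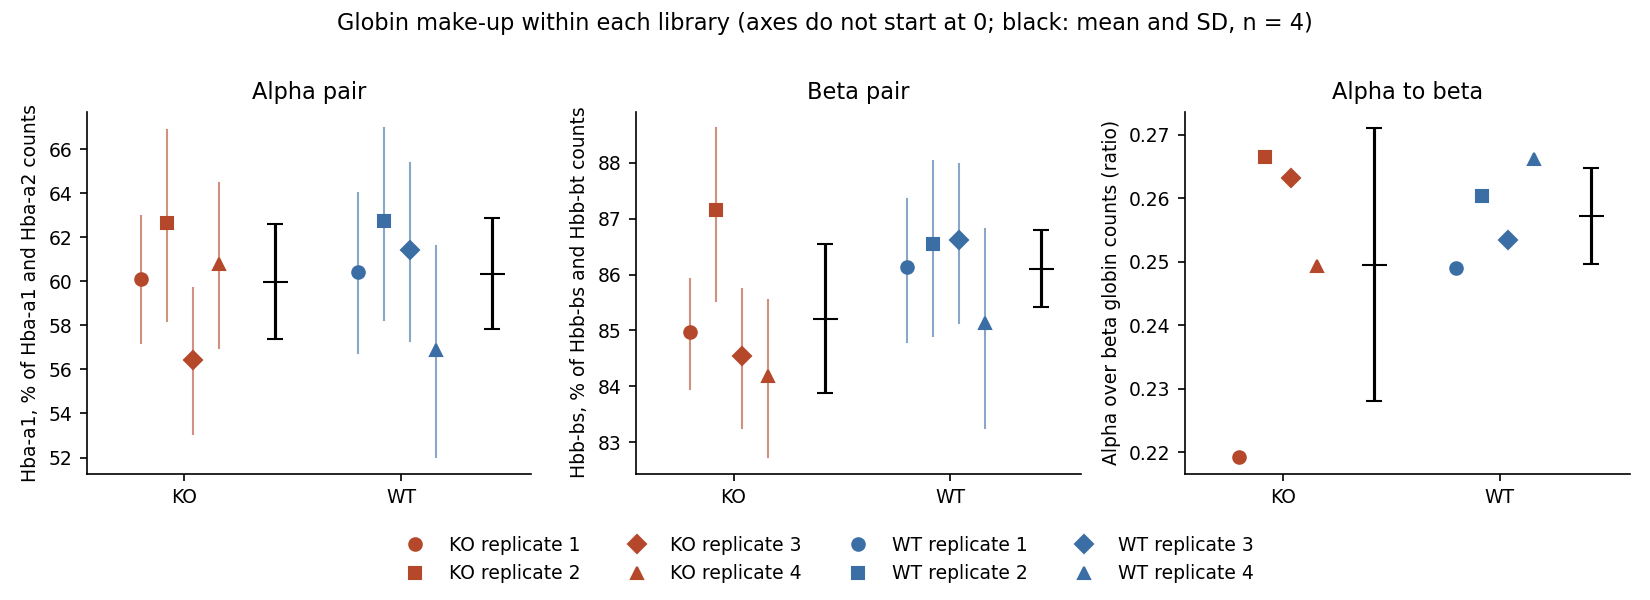
Hba-a1 as a percentage of alpha counts, Hbb-bs as a percentage of beta counts, and alpha over beta counts in each library, KO left and WT right, with Wilson 95% intervals as thin lines in the 2 percentage panels and the mean and SD (n = 4) in black. The axes do not start at 0. KO and WT overlap in each panel, and KO replicate 1 has the lowest alpha to beta ratio, 0.219.

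Globins outside the adult haemoglobin chains were also examined. Cygb, cytoglobin, a globin of fibroblast-like and neuronal cells, stood at 60.2 ± 8.17 CPM in KO and 59.5 ± 12.6 CPM in WT (SD, n = 4 each). Ngb, neuroglobin, stood at 3.07 ± 1.46 CPM in KO and 3.22 ± 1.36 CPM in WT. Neither was called by edgeR (adjusted p = 0.988 and 0.983), and of the list of other globins only these were tested. Hbb-y, an embryonic beta-type chain, had 0 to 2 counts in KO and 0 to 2 counts in WT libraries. The theta-type genes Hbq1a and Hbq1b had at most 10 counts, and myoglobin (Mb) at most 13 counts in any library.

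Genes of haem synthesis other than Alas2 were not called. Of the 11 tested, 8 had a log2 fold change above 0 and 3 below, and the median was 0.014, against 0.00029 over all tested genes. Alas1, the form of the first enzyme used outside red cells, stood at 59.4 ± 4.89 CPM in KO and 64.8 ± 4.30 CPM in WT (SD, n = 4 each). Fech, ferrochelatase, which inserts iron into protoporphyrin to form haem, stood at 67.1 ± 0.600 CPM in KO and 66.4 ± 1.56 CPM in WT. The mitochondrial carrier gene Slc25a39 had 58.3 ± 2.41 CPM in KO and 57.8 ± 1.13 CPM in WT.

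Genes that clear haem and haemoglobin or export haem were not called either, with 4 of 11 above 0 and a median of -0.0085. Among them Hmox2, the constitutive haem oxygenase, stood at 71.8 ± 1.84 CPM in KO and 76.4 ± 4.49 CPM in WT (SD, n = 4 each). Lrp1, which encodes a receptor for haem bound to haemopexin, stood at 469 ± 115 CPM in KO and 494 ± 70.9 CPM in WT. Of 9 tested genes of iron uptake, storage and export, 6 lay above 0, none was called and the median was 0.088. Fth1, the heavy chain of ferritin, stood at 1282 ± 276 CPM in KO and 1125 ± 214 CPM in WT, and Tfrc, the transferrin receptor, at 127.8 ± 6.55 CPM in KO and 120.3 ± 9.07 CPM in WT.

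The markers that define red cells and their precursors were close to 0. Of 18 genes of this list in the table, 13 had fewer than 10 counts in every library. Slc4a1, the anion exchanger of the red cell membrane, had 1 to 16 counts in KO libraries and 0 to 7 counts in WT libraries. Klf1, an erythroid transcription factor, had 2 to 5 counts in KO and 1 to 4 counts in WT. Gfi1b had 0 counts in all 8 libraries, and Rhag and Hemgn had at most 1. The list passed the filter with 4 genes, Epor, Tal1, Ermap and Icam4, all above 0, with a median log2 fold change of 0.35 and none called. Epor, the erythropoietin receptor, stood at 4.58 ± 0.467 CPM in KO and 3.79 ± 1.08 CPM in WT, and Tal1, a factor of blood and endothelial cells, at 2.44 ± 0.315 CPM in KO and 2.26 ± 0.532 CPM in WT (SD, n = 4 each).

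The summed level of that list was 9.18 to 11.04 CPM in KO libraries and 5.36 to 9.48 CPM in WT libraries. Against Hbb-bs across the 8 libraries it gave a Pearson r of 0.63 (exact permutation p = 0.0881, adjusted p = 0.761) and a Spearman rho of 0.95 (exact permutation p = 0.00114, adjusted p = 0.0183). The adjustment covers 16 relations of Hbb-bs, namely with 15 lists and the first principal component. Without KO replicates 1 and 3, r was 0.55. No other relation passed the adjustment by r or by rho.

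Red cell genes that the brain also uses, such as the spectrin and adducin genes Sptb and Add2, had 9 of 14 members above 0, a median of 0.026 and none called. Add2 stood at 553 ± 52.7 CPM in KO and 571 ± 40.2 CPM in WT (SD, n = 4 each). Their summed level was 2149 to 2330 CPM in KO libraries and 2134 to 2354 CPM in WT libraries, and its r with Hbb-bs was -0.13 (exact permutation p = 0.741).

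Genes of other blood cells were examined in the same way. Among 12 neutrophil genes, 8 had fewer than 10 counts in every library, and 1 was tested, Mmp9, at 1.81 ± 0.259 CPM in KO and 1.62 ± 0.232 CPM in WT (SD, n = 4 each). S100a8 and S100a9, calcium-binding proteins abundant in neutrophils, had 2 to 11 and 0 to 24 counts in KO libraries and 0 to 1 and 2 to 8 counts in WT libraries. The summed neutrophil level was 2.25 to 20.5 CPM in KO and 1.84 to 2.60 CPM in WT. KO replicate 4 held the value of 20.5 through 522 counts of Lcn2, and its Hbb-bs level, 69.6 CPM, lay below those of KO replicates 1 and 3.

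Of 13 platelet genes, 6 were tested, 3 above and 3 below 0, with a median of -0.0047 and none called. Itgb3, the beta chain of the platelet fibrinogen receptor, stood at 4.196 ± 0.621 CPM in KO and 4.10 ± 0.475 CPM in WT (SD, n = 4 each). The platelet sum was 10.9 to 13.2 CPM in KO and 10.6 to 12.97 CPM in WT. In the lymphocyte list 7 of 12 genes had fewer than 10 counts in every library, and the 2 that were tested lay above 0, with a median of 0.50 and none called. Ighm, the heavy chain of immunoglobulin M, stood at 22.1 ± 1.84 CPM in KO and 15.8 ± 3.98 CPM in WT (edgeR adjusted p = 0.796), with WT replicate 1 inside the KO range at 21.6 CPM. The CD3 chain genes Cd3d, Cd3e and Cd3g had at most 6 counts in any library, and Trbc2, a constant region of the T cell receptor beta chain, had 3 to 23 counts in KO and 4 to 12 counts in WT. In the monocyte list Ccr2, a chemokine receptor of circulating monocytes, had 4 to 24 counts in KO and 1 to 11 counts in WT, and Plac8 had 0 to 13 counts in KO and 2 to 6 counts in WT. Ly6c2 and Chil3 of the same list had at most 5 counts in any library. Its 2 tested genes, Fn1 and Vcan, had log2 fold changes of 0.21 and -0.070, neither called. The summed level of the list was 75.4 to 197 CPM in KO and 94.95 to 117 CPM in WT. That sum rested almost wholly on Fn1 and Vcan, so it is not a measure of monocytes. In KO replicate 4, which held the value of 197, Fn1 stood at 170 CPM and Vcan at 25.8 CPM.

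Vessel genes were abundant and were not called. Endothelial markers had 12 of 14 members above 0, with a median log2 fold change of 0.072, and pericyte and smooth muscle markers 6 of 9, with a median of 0.087. The endothelial sum was 412 to 617 CPM in KO libraries and 412 to 498 CPM in WT libraries. Flt1, a receptor of vascular endothelial growth factor, stood at 89.4 ± 13.4 CPM in KO and 86.8 ± 7.94 CPM in WT, and the transporter gene Slco1a4 at 60.6 ± 7.11 CPM in KO and 53.8 ± 4.32 CPM in WT (SD, n = 4 each). The endothelial sum had an r of 0.47 with Hbb-bs (exact permutation p = 0.239, adjusted p = 0.761). Without KO replicates 1 and 3 that r was 0.86 (unadjusted exact permutation p = 0.0278), so it depends on which libraries enter. The r of the platelet sum with Hbb-bs was 0.13 over the 8 libraries and 0.86 without KO replicates 1 and 3 (unadjusted exact permutation p = 0.0222). The pericyte and smooth muscle sum was 356 to 552 CPM in KO and 360 to 495 CPM in WT. Whether vessel density or retained blood had a part in the globin levels was not tested.

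Markers of neighbouring tissue varied widely between libraries. The choroid plexus sum was 192, 3477, 1118 and 248 CPM in KO replicates 1 to 4, against 198, 2246, 907 and 75.1 CPM in WT replicates 1 to 4. Its r with Hbb-bs was -0.16 (exact permutation p = 0.695), with 9 of 10 members above 0, a median log2 fold change of 0.36 and none called. KO replicate 2, the KO library poorest in globin, was the richest in choroid plexus markers, while WT replicate 4 was the poorest in both. With the choroid plexus level as a covariate, an alternative chosen after the data were seen, the log2 fold change of Hbb-bs was 0.61. Meningeal and fibroblast markers had 5 of 9 above 0 and a median of 0.025, and summed to 229 to 410 CPM in KO and 197 to 578 CPM in WT. Neuron markers had 8 of 10 below 0, a median of -0.10 and none called, and summed to 13984 to 15327 CPM in KO and 13953 to 15704 CPM in WT.

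**Figure D5:**
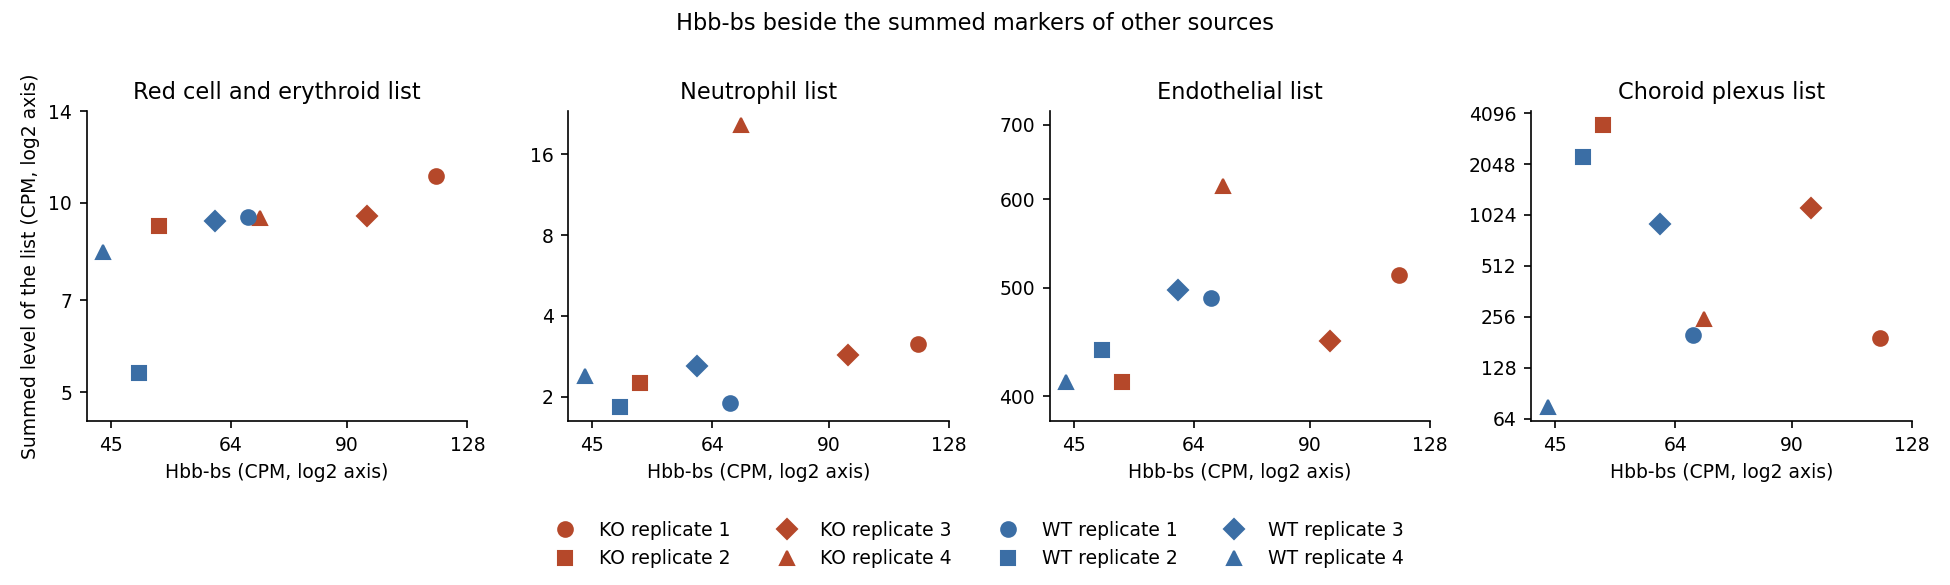
Level of Hbb-bs (CPM, log2 axis) against the summed level (CPM, log2 axis) of 4 marker lists in each library, KO in red and WT in blue, with 1 symbol per replicate number. The red cell and erythroid sum is 9.18 to 11.04 CPM in KO and 5.36 to 9.48 CPM in WT. KO replicate 4 stands alone in the neutrophil panel at 20.5 CPM, which rests on Lcn2. Choroid plexus levels run from 75.1 to 3477 CPM with no relation to Hbb-bs that passed the test.

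The genes whose pattern was most like that of the 5 were sought among 14290 tested genes, by Pearson r of log2 CPM over the 8 libraries with the mean centred level of the 5. Only 6 genes had an r of 0.9 or more, and 8 had an r of -0.9 or less, as a description over few libraries. The highest were Rbm10, an RNA-binding splicing regulator (0.97), Ppcdc, an enzyme of coenzyme A synthesis (0.96), Akr1c14, a steroid dehydrogenase (0.96), Siglece, a sialic acid receptor of myeloid cells (0.96), Rps14, a ribosomal protein (0.94), and Rapgef3, an exchange factor activated by cyclic AMP (0.91). Rps19, Slc25a35, Pfkfb1 and Cwh43 followed at 0.89. By comparison, each of the 5 genes had an r of 0.97 to 0.99 with the mean of the other 4. Rbm10 moved little in size, at 25.2, 21.7, 25.4 and 22.9 CPM in KO libraries, against 22.9, 21.9, 23.0 and 20.98 CPM in WT libraries. Siglece was scarce, at 1.17 ± 0.169 CPM in KO and 0.912 ± 0.101 CPM in WT (SD, n = 4 each). Pfkfb1, a phosphofructokinase regulator, is the gene downstream of Alas2 on chromosome X, with its start 17591 bases beyond the end of Alas2 on the same strand, and stood at 0.696 ± 0.158 CPM in KO and 0.563 ± 0.0762 CPM in WT. None of the 10 was called by edgeR, with adjusted p of 0.796 to 0.824. Among the genes of the marker lists, the highest r was 0.73, for Epb41, a membrane skeleton protein of red cells that the brain also uses, and the lowest was -0.71, for Alas1.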

How the data were processed

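The authors deposited raw read counts for each Ensembl gene, not normalized, with a column for every library. The submitters' processing notes name bcl2fastq 2.17.1.14 and the genome build mm10. The sources used here do not name the aligner, the counter, its annotation or its strand setting. Libraries were amplified with 12 PCR cycles, per the labels' protocols. Symbols were matched for 31292 IDs, and 125 had none. Positions and exon lengths came from GENCODE M21 and promoters from RefSeq GRCm38.p6.

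The test of KO over WT used edgeR 4.0.16 under R 4.3.3 (TMM, filterByExpr, robust quasi-likelihood test, Benjamini-Hochberg adjustment over 16228 genes). The SE was the log2 fold change divided by the square root of F. The pipeline was tested on simulated data. DESeq2 1.42.0 and limma 3.58.1 were alternatives. Ratios and correlations were tested by exact permutation, correlations from log2 CPM (prior count 2 between genes). Libraries of a group differed from each other with a chi-square of 8.85 to 40.9 per degree of freedom, so no library was a copy of another.

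The members and the 15 marker lists were chosen with earlier results of these data known. Named were the members, Dclk3, up to 3 abundant tested genes of each list and the 10 genes with the most similar pattern. Some single genes are not reported here. Other genes named, such as Slc4a1, Lcn2, S100a8, Ccr2, Trbc2, Apex2 and Epb41, were chosen after their values were seen. Same-numbered KO and WT libraries did not deviate together in every pair, so the numbers were not taken as pairs.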

Additional observations from a re-analysis of the deposited data

Results flagged for a closer look

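The value that stood apart from the others of its group was the summed level of the neutrophil list in KO replicate 4. It was 20.5 CPM, against 2.25 to 3.15 CPM in the other KO libraries. The sum rested on Lcn2, with 16.7 CPM in that library. There S100a9 had 24 counts and S100a8 11, while Ngp had 2, Retnlg 1 and Camp 0. The sum is thus mainly a value of 1 gene and not a measure of neutrophils. In 48 groups of 4 libraries examined in this way it was the 1 that passed, where chance gives about 1 in 20. The 5 globin and red cell genes themselves, and the ratios among them, held no such value. The cause was not tested.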

How the results depend on the processing

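All 5 genes kept a higher level in KO under each of the 85 alternative values computed for them, and in none was the adjusted p under 0.05. Those alternatives were DESeq2, limma-voom, other scaling factors, other filters, the replicate block, library totals without the 5 genes, the choroid plexus covariate and each library left out. With a library left out, the log2 fold change of KO over WT was 0.39 to 0.76 for Hbb-bs, 0.52 to 0.94 for Hbb-bt, 0.39 to 0.67 for Hba-a1, 0.42 to 0.76 for Hba-a2 and 0.34 to 0.58 for Alas2. With limma-voom and quality weights it was 0.42, 0.46, 0.42, 0.40 and 0.28 in the same order of genes. With the replicate number as a block the log2 fold change of Hbb-bs was 0.55 and that of Alas2 0.40, and the edgeR adjusted p was 0.821 for all 5. The unadjusted edgeR p of that fit ran from 0.00198 for Hbb-bs to 0.0279 for Alas2, but the numbers were not taken as pairs. The correlations of the deviations of same-numbered libraries were 0.14, 0.12, -0.22 and -0.014 for numbers 1 to 4.

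The number of genes called by edgeR was 0 over all 8 libraries, with 1000 at an unadjusted p under 0.05. It was 1 with the replicate block, namely Dclk3, and 0 to 1 with a library left out. DESeq2 called 4 genes, Dclk3, Col6a4, Zcchc7 and Eml5. With a library left out, the KO minus WT difference in the Hba-a1 share ran from -1.53 to 0.820 percentage points. It turned positive without KO replicate 3 or WT replicate 2 (0.417). The difference in the Hbb-bs share stayed negative, from -1.54 without KO replicate 2 to -0.551 without KO replicate 4, against -0.892 over all 8 libraries. The difference in the log2 alpha to beta ratio ran from -0.081 to 0.013 and turned positive without KO replicate 1. The lowest correlation between 2 of the 5 genes was 0.93 to 0.96 with a library left out, and 0.91 centred within each genotype. Depth limits Alas2 most, with 109 to 240 counts per library, and 13 of the 18 red cell and erythroid genes, with fewer than 10 counts in every library.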

Other observations

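Beside the 5 globin and red cell genes, 6 of 114 tested genes of the marker lists (5.26%) had an unadjusted edgeR p under 0.05, where 6.16% of all tested genes had one, and none was called (edgeR adjusted p = 0.796 for each). The groups did not overlap in 3 of the 114 (2.63%), namely Gad1, Tmod1 and Gp9, against 3.8% of all tested genes. Neither share exceeds that over all genes. These genes were chosen after their values were seen. Gad1, which encodes an enzyme that makes GABA in inhibitory neurons, stood at 376 ± 11.5 CPM in KO and 431 ± 22.6 CPM in WT (SD, n = 4 each). Slc17a7, the vesicular glutamate transporter of excitatory neurons, stood at 1482 ± 62.0 CPM in KO and 1702 ± 193 CPM in WT. Tmod1, tropomodulin 1, which caps actin filaments in red cells and neurons, stood at 32.9 ± 0.795 CPM in KO and 30.1 ± 1.32 CPM in WT. Trf, transferrin, stood at 19.4 ± 2.04 CPM in KO and 16.7 ± 1.35 CPM in WT, and the platelet glycoprotein gene Gp9 at 0.555 ± 0.0379 CPM in KO and 0.320 ± 0.124 CPM in WT. Ighm was the other gene of the 6.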
